A study of Arabidopsis thaliana with 12 samples.

Results

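Cytochromes P450 are heme enzymes that use molecular oxygen and electrons from NADPH to hydroxylate, or otherwise oxidize, small molecules. Plant genomes hold them in large families that are grouped into clans. The CYP71 clan contains many enzymes of specialized metabolism, whereas the CYP72, CYP85, CYP86 and CYP710 clans include enzymes that act on hormones, sterols and fatty acids. P450s of the endoplasmic reticulum receive their electrons from NADPH-cytochrome P450 reductases, which in Arabidopsis are ATR1 and ATR2. The P450s of glucosinolate and camalexin synthesis are well-known targets of immune signalling, but many other family members have no assigned substrate.

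The P450 genes outside the glucosinolate and camalexin pathways were taken from the deposited table of 23396 genes by their symbols. A total of 197 genes had a symbol of the P450 type, meaning CYP followed by a family number and a subfamily letter. Of these, 11 were left out because they belong to a fixed list of 13 names for glucosinolate, camalexin and a few other P450s. From the 186 that remained, 146 with a mean of at least 10 counts over the 12 samples were kept, and 40 fell below that level. All 146 also passed the filter on low counts of the test. They comprised 94 genes of the CYP71 clan, 17 of CYP86, 15 of CYP72, 12 of CYP85, 4 of CYP710, 2 of CYP97 and 1 each of CYP51 and CYP711. A further 16 P450 loci were listed under another symbol, such as AOS or DWF4, and were not members by the rule. CYP81F3 and CYP81F4 were members by the rule, although both have been linked to indole glucosinolates.

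RNA was sequenced from whole seedlings of wild-type Col-0 Arabidopsis in 4 groups of 3 samples, with 5 seedlings pooled in each sample. All groups shared genotype, age (10 days), liquid medium and a treatment time of 1 h. Normoxia/mock (NM) seedlings were kept at ambient oxygen with water, and hypoxia/mock (HM) seedlings were placed in anaerojars with water. Normoxia/flg22 (NF) and hypoxia/flg22 (HF) seedlings received 100 nM flg22, the flagellin peptide recognized by the receptor kinase FLS2, at ambient oxygen or at the start of hypoxia, respectively. Because whole seedlings were used, a change in the amount of a cell type and a change in RNA per cell cannot be told apart.

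The total count per sample was between 21307650 and 21554050. The hypoxia response genes ADH1, PCO1 and LBD41 were upregulated in HF vs NM, by 4.43 to 6.07 on the log2 scale, and LBD41 also in NF vs NM, by 2.16. None of them was called in HM vs NM, HF vs NF or HF vs HM. The immune marker FRK1 was not called in any comparison and differed widely between replicates. In CPM (read counts normalized to a common library size with the TMM factors), it was at 0.377, 0.79 and 38.3 in NM. It was at 2.53, 0.351 and 46.4 CPM in HM, 2.26, 20 and 65.5 CPM in NF and 2.25, 11.6 and 17.7 CPM in HF. In each same-numbered pair NF was above NM, whereas HF was above HM only in replicate 2. HM replicate 1 stood apart from the other HM samples. For the 1291 genes called higher in NF vs NM, the median log2 difference from the NM mean was 0.86 in HM replicate 1, compared with 0.0 and 0.32 in the other HM samples and 1.65 to 2.44 in the NF samples. Replicate 1 also had the highest summed level of 6 root marker genes in each group (3410, 2890, 3350 and 3020 CPM in NM, HM, NF and HF, against 1560 to 2390 CPM in all other samples). PYK10 alone made up most of these sums, at 3300, 2840, 3260 and 2960 CPM. The other root markers were also highest in replicate 1 of each group, except EXPA7 in NF (3.13 CPM, against 3.3 CPM in replicate 2). All 6 root markers and 5 shoot markers passed the filter on low counts, and none was called in any comparison.

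A P450 gene was called when its Benjamini-Hochberg adjusted p-value, from edgeR's quasi-likelihood test over all 20074 tested genes, was under 0.05 and its absolute log2(FC) was above 0.585. All fold changes are on the log2 scale and are given with the standard error (SE) of the fit. The comparisons with NM share the same 3 control samples, and the values for each are therefore set side by side without a test of their overlap.

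A small set of P450 genes was strongly upregulated by flg22. In NF vs NM, 10 of the 146 P450 genes were called higher (6.85%) and 1 was called lower (0.685%), close to the shares over all tested genes, which were 6.43% higher and 0.638% lower. The median log2(FC) was −0.03 over the 146 P450 genes and −0.03 over all tested genes. The genes called higher comprised 9 of the CYP71 clan, namely CYP706A1, CYP706A2, CYP71B5, CYP71B6, CYP71B21, CYP71B22, CYP81D8, CYP81G1 and CYP82C3, and CYP715A1 of the CYP72 clan. With the replicate number as a block, 15 were called higher and 7 lower, among them all 11 of the genes above, compared with 9.08% higher and 2.45% lower over all tested genes in that fit. DESeq2 on all samples called 11 P450 genes higher (against 7.67% of all tested genes) and 3 lower (against 1.48% of all tested genes). The additional genes called higher by edgeR with the block were CYP71A21, CYP71B14, CYP71B7, CYP76C2 and CYP81K2, with a log2(FC) of 1.04 (CYP81K2) to 3.21 (CYP71B14). Those called lower with the block were CYP706A5, CYP707A4, CYP71B4, CYP78A9, CYP86A8 and CYP94D2, with a log2(FC) of −0.63 (CYP86A8) to −2.41 (CYP707A4). CYP71B14 had a mean of 4.33 counts in NM and 39.3 in NF, and passed the filter on low counts through the flg22 groups. In edgeR without the block, the number of P450 genes called was 5 without NM replicate 2 and 7 without NM replicate 3. No share of all tested genes is given for these 2 fits, so the counts are not read as a result about the P450 genes.

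In HF vs NM, 12 P450 genes were called higher (8.22%, against 7.85% of all tested genes) and 10 were called lower (6.85%, against 2.59%). The 12 upregulated genes comprised the same 10 as in NF vs NM, together with CYP707A1 and CYP72C1. The 10 downregulated genes were CYP706A4, CYP706A5, CYP706A6, CYP706A7, CYP709B3, CYP710A2, CYP72A11, CYP86A8, CYP96A1 and CYP96A12. The median log2(FC) was −0.19 over the P450 genes and −0.05 over all tested genes. Scaling by library size alone moved the median of all genes by −0.28. It left 12 P450 genes called higher (against 6.42% of all tested genes) and gave 20 called lower (against 7.47% of all tested genes). DESeq2 on all samples called 11 P450 genes higher (against 9.3% of all tested genes). It called 16 lower (against 4.2% of all tested genes), among them the 10 above. The count of genes called lower was smaller in some fits without a single sample. It was 1 of 11 calls without NM replicate 3 (CYP96A12), 1 of 13 without HF replicate 2 (CYP96A12) and 3 of 14 without HF replicate 3 (CYP706A6, CYP706A7 and CYP96A12). No share of all tested genes is given for these fits, so the counts are not read as a result about the P450 genes.

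**Figure D1:**
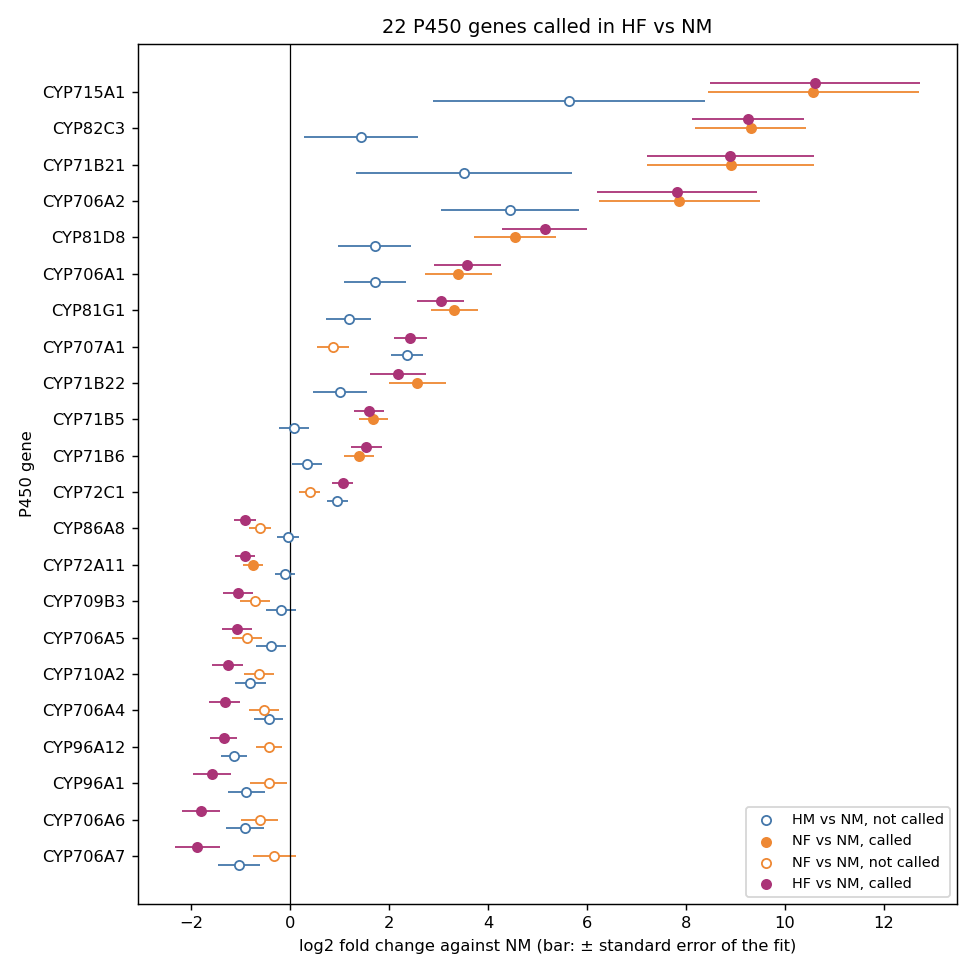
Fold changes of the 22 P450 genes called in HF vs NM. The x axis gives the log2 fold change against NM, points and bars give the estimate and its standard error for HM, NF and HF, and filled points are called. For the 10 genes that were also called higher with flg22 alone the NF and HF points lie within 0.61 of each other, whereas for CYP707A1 and CYP72C1 the HM point lies next to the HF point; the fitted values of CYP715A1 and CYP71B21, which had no NM counts, depend on the prior count.

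By clan, the called genes were spread over 5 of the 8 clans in HF vs NM. Over all tested genes 7.85% were called higher and 2.59% lower, and the small counts by clan were not tested against these shares. The CYP71 clan held 9 upregulated and 4 downregulated genes of 94, and its log2(FC) ranged from −1.88 to 9.26. The CYP86 clan, whose members include fatty acid hydroxylases of cutin and suberin synthesis, held 3 downregulated genes of 17 and none called higher. The CYP72 clan held 2 upregulated and 2 downregulated genes of 15, the CYP85 clan 1 upregulated gene of 12 and the CYP710 clan 1 downregulated gene of 4. None of the genes of CYP51, CYP97 and CYP711 was called, and their log2(FC) in HF vs NM lay between −0.21 and 0.16. These are single-copy or small families, with CYP51G1 in sterol synthesis, CYP97 enzymes in carotenoid hydroxylation and CYP711A1 (MAX1) in the synthesis of strigolactone hormones. The largest subfamily, CYP71B, held 4 upregulated genes of 25 in both NF vs NM and HF vs NM (against 6.43% and 7.85% of all tested genes). None of the 20 genes of CYP705A, the next largest subfamily, was called in any comparison by this edgeR fit, while DESeq2 on all samples called CYP705A21 lower in HF vs NM (log2(FC) −0.83, adjusted p = 0.0392).

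**Figure D2:**
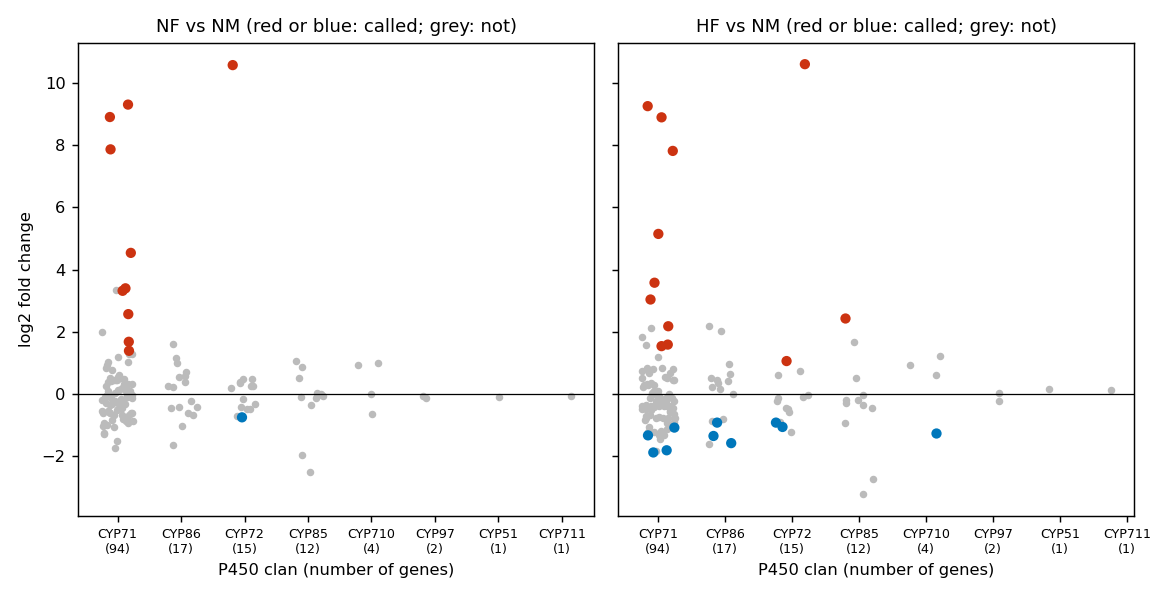
Log2 fold changes of all 146 P450 genes by clan, in NF vs NM (left) and HF vs NM (right). Each point is a gene, red and blue points were called higher and lower, grey points were not called, and the number of genes in each clan is given under its name. In HF vs NM blue points appear in the CYP71, CYP86, CYP72 and CYP710 clans, while NF vs NM has 1 blue point (CYP72A11).

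CYP82C3, a close relative of the CYP82C2 enzyme that hydroxylates indolic defence compounds, went from nearly undetected to a high level with flg22. It was at 0.264, 0.0 and 0.302 CPM in NM, at 1.42, 0.1 and 0.045 CPM in HM, at 57.8, 165 and 158 CPM in NF and at 70.1, 127 and 171 CPM in HF. Neither flg22 group overlapped with a mock group. Its log2(FC) was 9.31 (SE 1.13, adjusted p = 0.00224) in NF vs NM, 9.26 (SE 1.13, adjusted p = 0.0017) in HF vs NM and 7.83 (SE 1.03, adjusted p = 0.0064) in HF vs HM. Its coding sequence shares 93.1% of aligned bases with that of CYP82C2, but no stretch of 100 bases, the length of the reads, is identical between CYP82C3 and another P450 gene of the table.

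CYP715A1 and CYP71B21 had no count in any NM sample. CYP715A1, known for a role in flower development and volatile release, was at 12.2, 2.27 and 12 CPM in NF and at 16.9, 2.44 and 7.68 CPM in HF, and among the HM samples only replicate 1 had any count, at 0.816 CPM. Against a floor of 3 counts over the NM group, CYP715A1 was at least 210-fold higher in NF (adjusted p = 0.0169) and at least 214-fold higher in HF (adjusted p = 0.0131). CYP71B21 was at 0.494, 3.61 and 4.28 CPM in NF and at 1.1, 3.86 and 3.31 CPM in HF, which is at least 66.3-fold (adjusted p = 0.0125) and at least 65.4-fold (adjusted p = 0.00983) higher than the floor. Here too the only HM sample with a count was replicate 1, at 0.172 CPM. CYP715A1, CYP71B21 and CYP82C3 had a mean under 10 counts in the NM group and passed the filter on low counts through the flg22 groups. The neighbouring gene CYP71B22, whose coding sequence shares 86.9% of aligned bases with CYP71B21, was at 6.11, 7.2 and 9.45 CPM in NM, 28, 9.14 and 8.28 CPM in HM, 20.7, 58.1 and 56 CPM in NF and 30.2, 19.2 and 53.9 CPM in HF. All flg22 samples were above all NM samples, but HM replicate 1 lay above the lowest sample of both NF and HF. For CYP71B22 the log2(FC) was 2.57 (SE 0.58, adjusted p = 0.0198) in NF vs NM and 2.18 (SE 0.57, adjusted p = 0.0322) in HF vs NM.

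CYP71B5 and CYP71B6 were moderately expressed without treatment. CYP71B6, which metabolizes indole-3-acetonitrile to indole carboxylic derivatives, was at 28.9, 43 and 47.7 CPM in NM and at 45.8, 50.4 and 55.6 CPM in HM. With flg22 it was at 52.9, 135 and 125 CPM in NF and at 105, 126 and 117 CPM in HF. All NF and HF samples were above all NM samples, although NF replicate 1 lay only slightly above the highest of them. The estimated log2(FC) was 1.39 (SE 0.31, adjusted p = 0.0206) in NF vs NM and 1.54 (SE 0.31, adjusted p = 0.0092) in HF vs NM. For CYP71B5, an enzyme with no assigned role here, the values were 24.7 to 34.4 CPM in NM, 29.2 to 32.8 CPM in HM, 46.7 to 126 CPM in NF and 85.7 to 97.2 CPM in HF. Its log2(FC) was 1.68 (SE 0.3, adjusted p = 0.00638) in NF vs NM and 1.59 (SE 0.3, adjusted p = 0.00657) in HF vs NM, and its HM and NM samples overlapped.

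CYP81D8 and CYP81G1 belong to a family that contains both stress-induced and glucosinolate-modifying enzymes. CYP81D8 was at 5.28, 9.94 and 22.4 CPM in NM, at 76.2, 24.5 and 22.2 CPM in HM, at 81.8, 456 and 339 CPM in NF and at 317, 718 and 300 CPM in HF. HM replicate 1 was nearly as high as NF replicate 1. CYP81D8 had a log2(FC) of 4.54 (SE 0.83, adjusted p = 0.00663) in NF vs NM and 5.15 (SE 0.86, adjusted p = 0.00336) in HF vs NM. CYP81G1 was at 0.566, 1.53 and 0.733 CPM in NM, 2.36, 1.1 and 2.92 CPM in HM, 5.97, 13 and 9.3 CPM in NF and 7.04, 6.92 and 9.26 CPM in HF, with all flg22 samples above all mock samples. For CYP81G1 the log2(FC) was 3.32 (SE 0.48, adjusted p = 0.00264) in NF vs NM and 3.04 (SE 0.47, adjusted p = 0.00261) in HF vs NM. CYP81G1, CYP71B6 and CYP72C1 were the 3 of the 22 called genes that overlap another gene, all on the opposite strand, and whether the counting used strand is not given in the sources used here.

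The reductase ATR2 was upregulated in the same comparisons. Of 10 P450 redox partners (reductases, cytochromes b5 and their scaffolds), it was the only one called, at 124, 94.9 and 114 CPM in NM, 678, 135 and 168 CPM in HM, 877, 1920 and 1620 CPM in NF and 1580, 2580 and 1770 CPM in HF. All flg22-treated samples were above all mock-treated samples, and HM replicate 1 was again the highest mock sample. The log2(FC) of ATR2 was 3.73 (SE 0.61, adjusted p = 0.00386) in NF vs NM, 4.16 (SE 0.62, adjusted p = 0.00212) in HF vs NM and 2.6 (SE 0.58, adjusted p = 0.0329) in HF vs HM. The other reductase, ATR1, was at 132 to 246 CPM in NM and at 130 to 247 CPM in the other groups.

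**Figure D3:**
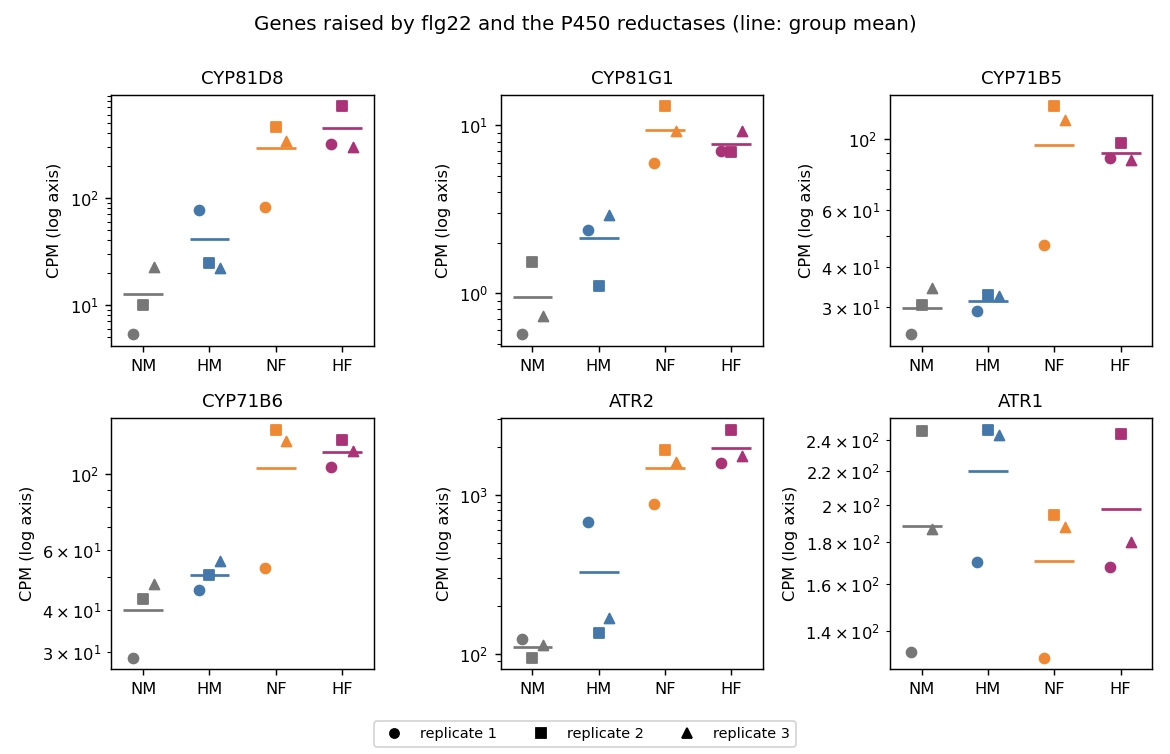
CPM per sample, on log axes, of 4 P450 genes called higher with flg22 and of the reductases ATR2 and ATR1. Points are samples, with the replicate number given by their shape, and horizontal lines are group means. The NF and HF samples of the 4 P450 genes and of ATR2 lie above all NM samples, HM replicate 1 (circle) is the highest HM sample for CYP81D8 and ATR2, and ATR1 shows no such separation.

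For 8 of the 10 P450 genes upregulated in NF vs NM, HM replicate 1 was above every NM sample, compared with 2 of 10 for HM replicate 2 and 3 of 10 for HM replicate 3. No such count was made over all 1291 genes called higher in NF vs NM, so it is not read as particular to the P450 genes. The median log2 difference of the 10 genes from the NM mean was 1.45 in HM replicate 1, 0.18 and 0.32 in the other HM samples and 2.55 to 3.36 in NF. Over the 1291 genes it was 0.86 in HM replicate 1, 0.0 and 0.32 in the other HM samples and 1.65 to 2.44 in NF. The part of this library in the HM values was examined by leaving it out. CYP706A2, for which the log2(FC) in HM vs NM was 4.44, had a value of 0.27 without HM replicate 1.

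The flg22 response was also measured under hypoxia. In HF vs HM, 5 P450 genes were called higher (3.42%, against 3.84% of all tested genes), and none was called lower (against 0.543% of all tested genes). At an unadjusted p under 0.05, 15 were lower in edgeR (10.3%, against 7.25% of all tested genes). DESeq2 on all samples called 7 P450 genes higher (against 6.04% of all tested genes) and 5 lower (against 1.99% of all tested genes). The 5 genes called higher were CYP71B5, CYP71B21, CYP81D8, CYP81G1 and CYP82C3. For CYP71B5 the log2(FC) was 1.52 (SE 0.3, adjusted p = 0.0228), and for CYP81D8 it was 3.44 (SE 0.79, adjusted p = 0.036). Without HM replicate 1, 12 P450 genes were called, 8 of them higher. These included CYP706A1 (log2(FC) 3.24, adjusted p = 0.00157) and CYP706A2 (log2(FC) 7.55, adjusted p = 0.000897), compared with 1.87 (adjusted p = 0.142) and 3.38 (adjusted p = 0.207) with all samples. Without HM replicate 2, HM replicate 3, HF replicate 2 or HF replicate 3, only CYP82C3 was called. The count was 2 without NF replicate 3 or HF replicate 1, and 3 without NM replicate 3 or NF replicate 2. For fits without a single sample no share of all tested genes is given. Their counts, higher or smaller, are therefore not read as a result about the P450 genes.

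The CYP706A subfamily responded in opposite directions. CYP706A1 and CYP706A2, which lie on chromosome 4 with LBD32 between them, were the P450 genes with the highest mean level per coding length over all samples (741 and 287 CPM per kb) and rose with flg22. CYP706A4, CYP706A5, CYP706A6 and CYP706A7, which form a cluster elsewhere on chromosome 4, were at 0.34 to 53.4 CPM and fell in HF vs NM. CYP706A3, for which floral terpene oxidation is known, had a mean of 8.92 counts and was not among the 146. These enzymes are classed in the CYP71 clan, and the substrates of the other CYP706A members are not stated here.

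CYP706A1 (chr4:11929359-11931750, plus strand in TAIR10.1) was at 247, 103 and 204 CPM in NM and at 1340, 221 and 248 CPM in HM. It was at 1510, 2430 and 1920 CPM in NF and at 2660, 2150 and 1830 CPM in HF. All flg22 samples were above all mock samples, with HM replicate 1 close to the lowest of them. Its log2(FC) was 3.4 (SE 0.68, adjusted p = 0.0102) in NF vs NM and 3.58 (SE 0.68, adjusted p = 0.00648) in HF vs NM.

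CYP706A2 (chr4:11934969-11936823, plus strand) was at 7.47, 1.49 and 2.29 CPM in NM and at 236, 2.56 and 6.48 CPM in HM. It was at 691, 950 and 999 CPM in NF and at 836, 805 and 914 CPM in HF. The flg22 samples were all above the mock samples, and HM replicate 1 was the only mock sample over 10 CPM. The estimated log2(FC) was 7.87 (SE 1.63, adjusted p = 0.0127) in NF vs NM and 7.82 (SE 1.62, adjusted p = 0.0102) in HF vs NM. For CYP706A2 no adjusted p-value was given by DESeq2 on all samples, and in edgeR its adjusted p was 0.0668 and 0.0504 without NM replicate 2 and 0.0687 and 0.0546 without NM replicate 3, in NF vs NM and HF vs NM, respectively. The coding sequences of CYP706A1 and CYP706A2 share 97.5% of aligned bases, and 61.7% of the 100-base stretches of CYP706A2 occur unchanged in CYP706A1. Their separate levels are therefore uncertain, as the counting could divide reads between them.

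Each gene of the cluster of CYP706A4 to CYP706A7 (chr4:7307737-7319774, all on the minus strand) had its lowest group mean in HF. CYP706A6 was at 34.9, 29 and 53.4 CPM in NM, at 10.5, 22.5 and 29 CPM in HM, at 25.4, 15.9 and 35 CPM in NF and at 12.3, 9.53 and 11.6 CPM in HF. All HF samples were below all NM and NF samples, and among the HM samples only replicate 1 was as low. CYP706A6 had a log2(FC) of −1.81 (SE 0.39, adjusted p = 0.0133) in HF vs NM, −0.92 (SE 0.38, adjusted p = 0.787) in HM vs NM and −0.62 (SE 0.38, adjusted p = 0.513) in NF vs NM.

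CYP706A7, the least abundant of the 4, was at 2.11, 1.86 and 2.54 CPM in NM, 1.03, 1 and 1.12 CPM in HM, 2.18, 1.91 and 1.13 CPM in NF and 0.4, 0.34 and 1.01 CPM in HF. Both hypoxia groups were below NM without overlap, and its log2(FC) was −1.88 (SE 0.45, adjusted p = 0.0219) in HF vs NM. CYP706A4 was at 11.1, 14.6 and 17.3 CPM in NM, 6.18, 14.5 and 11 CPM in HM, 10, 12.3 and 7.38 CPM in NF and 5.49, 5.67 and 5.86 CPM in HF, with a log2(FC) of −1.33 (SE 0.31, adjusted p = 0.0173). CYP706A5 was at 21.1, 38.5 and 47.4 CPM in NM, 20.2, 26.9 and 34.7 CPM in HM, 13.9, 22.1 and 22.2 CPM in NF and 17.5, 16.2 and 16.8 CPM in HF, with a log2(FC) of −1.08 (SE 0.3, adjusted p = 0.0449). The HF samples of both genes lay close together and below all NM samples. For CYP706A5 the mean was 19.4 CPM in NF and 16.8 CPM in HF, and NF replicate 1 lay below all HF samples. CYP706A5 and CYP706A6 share 90.6% of aligned coding bases and 11.5% of the 100-base stretches of CYP706A5, so that a small part of their reads could be divided between them, while CYP706A4 and CYP706A7 share no such stretch with another P450 gene of the table. In HF vs NF none of these 4 genes was called by edgeR, with adjusted p-values of 0.584 (CYP706A7) to 0.996 (CYP706A5), or by DESeq2 on all samples. DESeq2 with the replicate block called CYP706A6 lower (log2(FC) −1.12, adjusted p = 0.0349). That block assumes that the replicate numbers match across groups, which HF replicate 3 did not show (r of −0.111 with NF replicate 3).

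**Figure D4:**
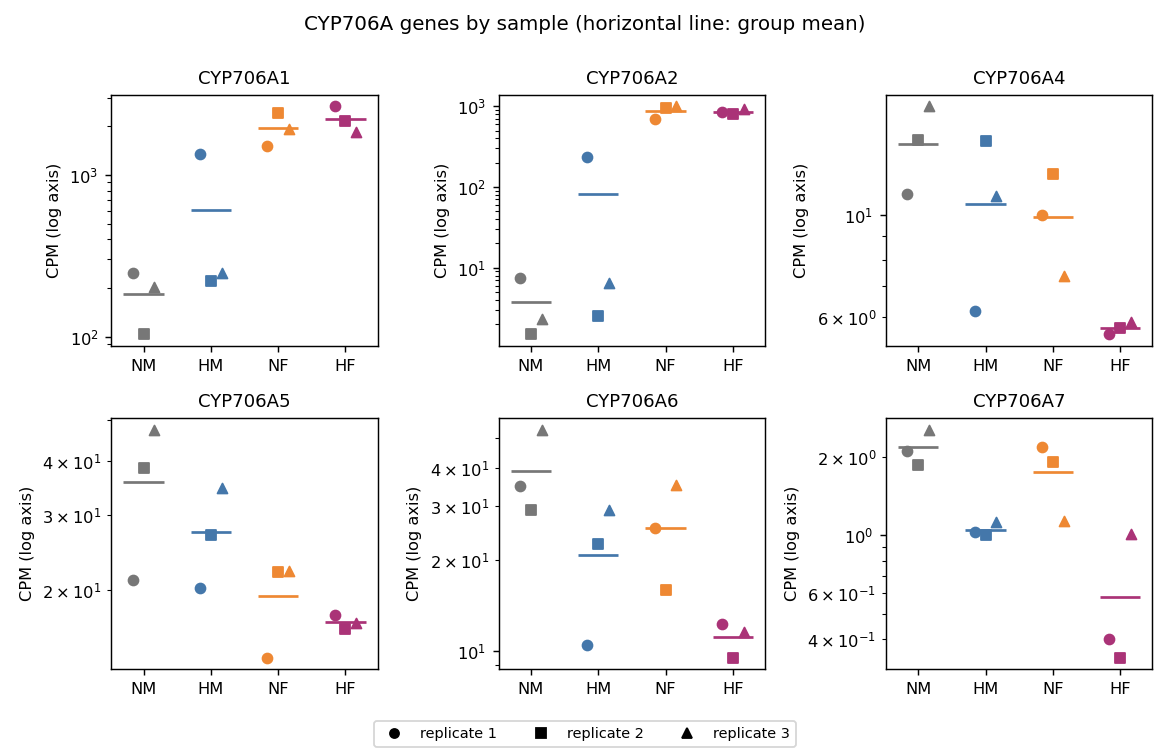
CPM per sample of the 6 CYP706A genes, on log axes that differ between panels. Points are samples, with the replicate number given by their shape, and horizontal lines are group means. In CYP706A1 and CYP706A2 the NF and HF points lie above all mock points, and in CYP706A4 to CYP706A7 the HF points lie below all NM points.

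The sequence before the gene start was examined for the called genes, since several of them moved together with flg22. The W-box core TTGAC, a motif that WRKY transcription factors bind, was searched on both strands in the 250 bases before each annotated gene start in TAIR10.1 (RefSeq). It was present before 10 of the 12 genes called higher in HF vs NM and before 2 of the 10 called lower, compared with 44.9% of 27443 protein-coding genes. The longer forms TTGACC or TTGACT were present before the same number of upregulated genes (10 of 12) and before 0 of 10 downregulated genes, compared with 28.4% of all. The G-box CACGTG was present before 3 of 12 and 0 of 10, compared with 6.49% of all. For CYP81D8, CYP81G1, CYP706A4, CYP72A11 and CYP96A12 the window overlaps a neighbouring gene. A match is a description of the sequence only, and binding was not measured. CYP72C1 and CYP81G1 were the upregulated genes without a TTGAC match. Among the genes with the largest rise, CYP82C3 had 5 matches, CYP71B21 had 3 and CYP715A1 and CYP706A2 had 2 each. CYP707A1, which was higher in both hypoxia groups, had 2, of which one overlaps a G-box. CYP706A5 and CYP706A7 are shown as members of the downregulated cluster, with 0 and 1 matches. The sequences run 5′ to 3′ on the gene's strand and end at the base before the gene start, with TTGAC and its reverse complement GTCAA in capitals. They lie at chr4:15454833-15455082, chr3:9585110-9585359 (minus strand), chr5:21272574-21272823, chr4:11934719-11934968, chr4:10521009-10521258, chr4:7312685-7312934 (minus strand) and chr4:7319775-7320024 (minus strand), in the order given.
CYP82C3: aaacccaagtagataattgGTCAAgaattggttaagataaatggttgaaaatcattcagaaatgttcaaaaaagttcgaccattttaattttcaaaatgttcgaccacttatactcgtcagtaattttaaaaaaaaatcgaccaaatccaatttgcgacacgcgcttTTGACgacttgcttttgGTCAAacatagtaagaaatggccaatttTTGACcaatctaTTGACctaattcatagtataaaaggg
CYP71B21: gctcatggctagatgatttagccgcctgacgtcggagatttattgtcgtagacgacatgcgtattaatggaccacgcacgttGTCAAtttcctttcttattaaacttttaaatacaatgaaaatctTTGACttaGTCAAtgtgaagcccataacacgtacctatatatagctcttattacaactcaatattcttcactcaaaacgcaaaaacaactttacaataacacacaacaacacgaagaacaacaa
CYP715A1: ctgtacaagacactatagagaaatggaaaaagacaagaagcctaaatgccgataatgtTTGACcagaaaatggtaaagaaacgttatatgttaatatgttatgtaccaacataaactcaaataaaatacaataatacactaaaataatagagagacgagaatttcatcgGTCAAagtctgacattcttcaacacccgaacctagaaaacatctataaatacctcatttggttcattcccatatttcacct
CYP706A2: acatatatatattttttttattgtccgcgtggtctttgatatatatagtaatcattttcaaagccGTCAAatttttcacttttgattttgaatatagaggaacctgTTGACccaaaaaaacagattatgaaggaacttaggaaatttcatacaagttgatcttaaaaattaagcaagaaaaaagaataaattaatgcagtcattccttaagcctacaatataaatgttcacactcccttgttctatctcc
CYP707A1: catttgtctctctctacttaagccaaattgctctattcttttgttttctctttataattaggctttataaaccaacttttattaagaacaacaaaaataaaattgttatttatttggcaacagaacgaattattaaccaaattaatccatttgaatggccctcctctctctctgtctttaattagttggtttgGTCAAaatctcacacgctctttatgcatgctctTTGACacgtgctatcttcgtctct
CYP706A5: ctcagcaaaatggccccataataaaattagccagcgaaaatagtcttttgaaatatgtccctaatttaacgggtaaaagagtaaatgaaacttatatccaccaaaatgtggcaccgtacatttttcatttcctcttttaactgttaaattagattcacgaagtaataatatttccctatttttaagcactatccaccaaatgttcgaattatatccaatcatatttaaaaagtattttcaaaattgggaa
CYP706A7: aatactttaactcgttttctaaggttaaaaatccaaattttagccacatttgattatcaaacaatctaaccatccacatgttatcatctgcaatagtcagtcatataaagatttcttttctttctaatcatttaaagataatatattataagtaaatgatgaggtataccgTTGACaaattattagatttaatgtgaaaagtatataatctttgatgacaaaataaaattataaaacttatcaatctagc

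In edgeR no gene of the table was called for hypoxia alone, including the hypoxia response genes ADH1, PCO1 and LBD41. LBD41 was at a mean of 18.4 CPM in NM and 582 CPM in HM. The absence of calls therefore does not show that P450 genes did not respond. In HM vs NM, none of the 146 was called higher (0.0% of all tested genes) or lower (0.0% of all tested genes) in edgeR. At an unadjusted p under 0.05, 7 P450 genes were higher (4.79%, against 3.88% of all tested genes) and 7 lower (4.79%, against 2.05%). Fitted to all samples, DESeq2 called CYP707A1 and CYP72C1 higher (against 0.74% of all tested genes) and CYP96A12 lower (against 0.101% of all tested genes). In 5 P450 genes all HM samples were above all NM samples (3.42%, against 5.54% of all tested genes), and in 6 they were below (4.11%, against 4.75%). The 5 P450 genes with the smallest unadjusted p were CYP707A1, CYP72C1, CYP96A12, CYP706A2 and CYP94B3.

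CYP707A1 encodes an abscisic acid 8′-hydroxylase, which inactivates that hormone. It was at 1.66, 2.46 and 1.47 CPM in NM and at 2.67, 3.3 and 4.23 CPM in NF, compared with 12.4, 6.88 and 9.45 CPM in HM and 10.3, 12.6 and 7.3 CPM in HF. All 6 hypoxia samples were above all 6 normoxia samples. Its log2(FC) was 2.43 (SE 0.33, adjusted p = 0.00173) in HF vs NM, 2.36 (SE 0.32, adjusted p = 0.0578) in HM vs NM and 1.57 (SE 0.31, adjusted p = 0.196) in HF vs NF. In HM vs NM the adjusted p was 4.05e-08 with DESeq2 on all samples and 0.0235 in edgeR without HM replicate 2, whereas it was 0.566 without NM replicate 3.

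CYP72C1 belongs to the enzymes that inactivate brassinosteroids. It was at 8.53, 7.9 and 5.18 CPM in NM and at 9.3, 9.69 and 9.35 CPM in NF, and at 13.1, 13.8 and 14.9 CPM in HM and 15.4, 17.5 and 12 CPM in HF. Again the lowest hypoxia sample was above the highest normoxia sample. The estimated log2(FC) was 1.06 (SE 0.21, adjusted p = 0.00786) in HF vs NM and 0.95 (SE 0.21, adjusted p = 0.278) in HM vs NM. None of the other 7 P450s of brassinosteroid synthesis and inactivation that were tested, and none of 9 further genes of the pathway, was called in any comparison.

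The other abscisic acid 8′-hydroxylases of the 146 genes, CYP707A2 and CYP707A4, were not called by edgeR with all samples and no block. CYP707A3 was left out by the rule. DESeq2 on all samples called CYP707A2 (log2(FC) −2.71, adjusted p = 0.0239) and CYP707A4 (log2(FC) −3.21, adjusted p = 0.00251) lower in HF vs NM. In edgeR without HM replicate 1 their adjusted p in HF vs NM was 0.0494 and 0.0465, respectively. CYP707A4, described here after its values were seen, was at 1.47, 14 and 7.46 CPM in NM, 2.19, 7.73 and 6.3 CPM in HM, 0.247, 1.75 and 2.07 CPM in NF and 0.3, 1.13 and 1.01 CPM in HF. Replicate 1 was the lowest sample in each group, and within each replicate number both flg22 samples were below both mock samples. CYP707A4 had a log2(FC) of −2.5 (SE 0.89, adjusted p = 0.155) in NF vs NM and −3.22 (SE 0.94, adjusted p = 0.0518) in HF vs NM. With the replicate number as a block CYP707A4 was called lower in NF vs NM (log2(FC) −2.41, SE 0.34, adjusted p = 0.00264 in edgeR). CYP707A2 was at 2.34, 15.8 and 10.8 CPM in NM, 0.515, 6.48 and 9 CPM in HM, 1.11, 1.13 and 5.22 CPM in NF and 0.949, 1.76 and 1.68 CPM in HF. Its HF samples were below all NM samples but overlapped with HM and NF, and the log2(FC) in HF vs NM was −2.72 (SE 1, adjusted p = 0.123).

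**Figure D5:**
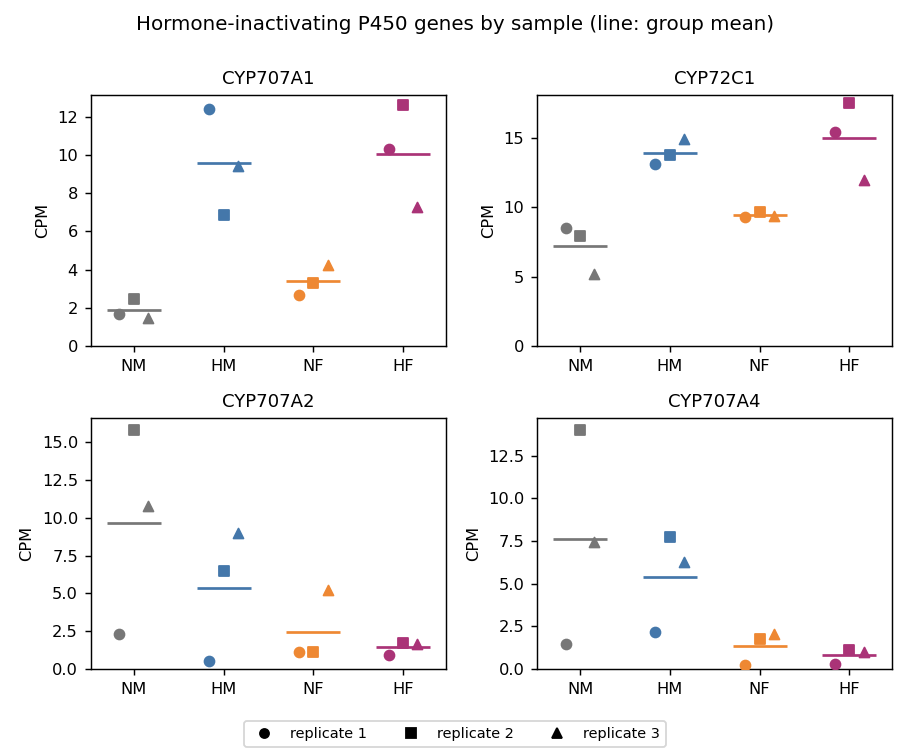
CPM per sample of CYP707A1, CYP72C1, CYP707A2 and CYP707A4. Points are samples, with the replicate number given by their shape, and horizontal lines are group means. For CYP707A1 and CYP72C1 the HM and HF points lie above all NM and NF points, and for CYP707A2 and CYP707A4 replicate 1 (circle) is the lowest point in each group.

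Other hormone P450s were not called. This held for 5 genes of gibberellin synthesis and inactivation, 5 of the jasmonate pathway, 2 cytokinin hydroxylases and CYP711A1. CYP94B3, which hydroxylates the active jasmonate conjugate, was at 1.89, 2.74 and 4.4 CPM in NM and at 4.72, 10.8 and 6.03 CPM in HM, without overlap, and its log2(FC) in HM vs NM was 1.25 (SE 0.45, adjusted p = 0.694). In NF and HF it was at 1.69 to 3.82 and 3.89 to 8 CPM, respectively.

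The other P450 genes called lower in HF vs NM were CYP86A8, CYP96A1, CYP96A12, CYP710A2, CYP709B3 and CYP72A11. CYP86A8 (LACERATA), a fatty acid hydroxylase of cutin synthesis, was at 26.9, 30.4 and 28.9 CPM in NM, 20.7, 35.6 and 27.2 CPM in HM, 20.2, 21.8 and 14.3 CPM in NF and 15.9, 17 and 12.8 CPM in HF. Both flg22 groups were below NM without overlap, while the HM samples overlapped with NM. Its log2(FC) was −0.92 (SE 0.22, adjusted p = 0.0241) in HF vs NM and −0.62 (SE 0.22, adjusted p = 0.162) in NF vs NM. Among 15 further genes of cutin and suberin synthesis and transport, the transporter ABCG11 was called lower in HF vs NM, at 68.8 to 71 CPM in NM and 31 to 45.8 CPM in HF (log2(FC) −0.86, SE 0.21, adjusted p = 0.0218), and no other was called.

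CYP96A12 and CYP96A1 belong to a subfamily that contains the midchain alkane hydroxylase of stem wax. CYP96A12 was at 5.06, 8.32 and 7.55 CPM in NM, 3.39, 2.11 and 3.96 CPM in HM, 5.47, 4.85 and 5.17 CPM in NF and 2.8, 2.72 and 2.69 CPM in HF. Both hypoxia groups were below NM and below NF without overlap. The estimated log2(FC) was −1.35 (SE 0.27, adjusted p = 0.00873) in HF vs NM, −1.14 (SE 0.27, adjusted p = 0.349) in HM vs NM and −0.91 (SE 0.27, adjusted p = 0.623) in HF vs NF. CYP96A1 was at 2.32 to 5.32 CPM in NM and at 1.1 to 1.39 CPM in HF, with a log2(FC) of −1.58 (SE 0.39, adjusted p = 0.0236).

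CYP710A2, a sterol C22-desaturase, was at 18.1, 12 and 18.9 CPM in NM, 10.4, 10.1 and 7.6 CPM in HM, 13.8, 8.09 and 9.79 CPM in NF and 9.49, 4.31 and 6.48 CPM in HF. The HM and HF samples were below all NM samples, and the log2(FC) was −1.27 (SE 0.31, adjusted p = 0.0246) in HF vs NM. CYP709B3, which has been linked to abscisic acid and salt responses, was at 29.9 to 52.3 CPM in NM and 19.7 to 22.6 CPM in HF, with a log2(FC) of −1.06 (SE 0.3, adjusted p = 0.0462). Its NF samples, at 22 to 32.9 CPM, overlapped with NM.

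In edgeR with all samples, TMM normalization and no block, CYP72A11 was the only P450 gene called lower with flg22 alone. It was at 77.2, 95.7 and 109 CPM in NM, 72.4, 94.4 and 93.9 CPM in HM, 53.2, 47 and 67.4 CPM in NF and 58.9, 43.8 and 46.6 CPM in HF. The flg22 samples were all below the mock samples. CYP72A11 had a log2(FC) of −0.75 (SE 0.2, adjusted p = 0.049) in NF vs NM and −0.92 (SE 0.2, adjusted p = 0.014) in HF vs NM. The call in NF vs NM was kept in 11 of 22 other settings, with adjusted p-values of 0.00261 to 0.206, and was lost without NM replicate 2 (0.142), NM replicate 3 (0.194), NF replicate 1 (0.121) or NF replicate 2 (0.206), among others. Its neighbours CYP72A13 and CYP72A15, both among the 5 P450 genes with the highest mean CPM, did not pass the test in any comparison, and CYP72A13 ranged from 66 CPM (NF replicate 1) to 371 CPM (HM replicate 2). CYP72A15 ranged from 45.9 to 283 CPM in the same samples, and 2.71% of the 100-base stretches of CYP72A11 also occur in CYP72A15.

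HF vs NF gave the effect of hypoxia in flg22-treated seedlings. Whether hypoxia altered the flg22 response was tested only by the interaction, the difference HF vs HM minus the difference NF vs NM. In HF vs NF, no P450 gene was called higher (0.0% of all tested genes) or lower (0.0% of all tested genes) by edgeR, and the smallest adjusted p was 0.196. The hypoxia response genes ADH1, PCO1 and LBD41 were not called there either. At an unadjusted p under 0.05, 3 P450 genes were higher (2.05%, against 2.3% of all tested genes) and 9 lower (6.16%, against 2.65%). DESeq2 on all samples called CYP707A1 higher (against 0.384% of all tested genes) and no P450 gene lower (against 0.137% of all tested genes). All HF samples were above all NF samples for 5 P450 genes (3.42%, against 5.08% of all tested genes) and below them for 10 (6.85%, against 5.22%). The median log2(FC) was −0.12 over the P450 genes and −0.01 over all tested genes, and 93 of the 146 P450 genes had a negative value. The 5 P450 genes with the smallest p were CYP707A1, CYP706A7, CYP71A14, CYP96A12 and CYP72C1. CYP71A14, for which no role is given here, was at 3.37, 1.44 and 2.51 CPM in NF and at 0.799, 0.624 and 1.34 CPM in HF (log2(FC) −1.4, SE 0.41, adjusted p = 0.597).

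The interaction was called for no P450 gene (0.0% of all tested genes in either direction), also with DESeq2 on all samples, and 2 genes had an unadjusted p under 0.05. These were CYP706A2 (−4.48, SE 1.79) and CYP81G1 (−1.46, SE 0.63). CYP707A1 (−0.80, SE 0.44) and CYP71B22 (−1.38, SE 0.77) followed, as did CYP715A1, which had no NM counts. For CYP706A2 the NF and HF means were 880 ± 165 and 852 ± 56 CPM (SD, n = 3), whereas the HM mean of 81.7 ± 134 CPM rested on HM replicate 1. The 10 genes called higher in NF vs NM had a log2(FC) of −0.38 to 0.61 in HF vs NF. Of the genes called in HF vs NM but not in NF vs NM, none was called in HF vs NF by edgeR, and DESeq2 on all samples called CYP707A1.

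Replicate 1 stood apart from the other replicates for a number of P450 genes, whatever the treatment. It was the highest sample in all 4 groups for 26 of the 146 P450 genes (17.8%, against 14.7% of all tested genes) and the lowest in all 4 for 23 (15.8%, against 12.9%). Of the 20 CYP705A genes, 9 were highest in replicate 1 in all groups, and of the 25 CYP71B genes, 8 were lowest. CYP705A5, which acts in the synthesis of the root triterpene thalianol derivatives, was at 47.1, 6.5 and 15.3 CPM in NM, 34.8, 16.7 and 5.53 CPM in HM, 31.8, 24 and 10.3 CPM in NF and 41.2, 11.5 and 7.54 CPM in HF. CYP708A2, which hydroxylates thalianol, was also highest in replicate 1 of each group, at 24.3 to 32.9 CPM against 4.5 to 15.5 CPM in the other samples. The summed root markers, mostly PYK10, were highest in the same samples, and their part in these values was not tested. CYP705A5 and CYP708A2 were chosen for description after their values were seen.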

How the data were processed

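RNA from 12 whole-seedling samples was sequenced, as paired ends of 100 bp, by the authors, who filtered the reads and aligned them with HISAT to TAIR10. They deposited estimated counts per gene. The counting program and its use of strand are not given in the sources used here. Because 2.3% of the values were not whole, the expected counts were rounded.

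Groups were taken from the labels. All 12 samples were fitted together with 4 group means in edgeR 4.0.16 (R 4.3.3) by the quasi-likelihood test, with TMM normalization (factors 0.828 to 1.23), the filterByExpr filter at a minimum count of 10, and Benjamini-Hochberg adjustment over 20074 genes. The thresholds were an adjusted p of 0.05 and a 1.5-fold change. CPM used TMM-scaled library sizes. A gene without counts in a group was set against a floor of 3 counts over that group; such floors cover counting error only. The labels describe 3 biological replicates per group.

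The P450 genes, gene lists and tests were chosen with earlier results of these data known. Named genes were those called in any comparison, the 5 with the smallest p in a comparison with fewer than 5 calls, and the 5 with the highest mean CPM; exceptions are stated. Deviations from the group means were correlated between same-numbered samples of NM and HM (r across genes of 0.681, 0.595 and 0.264) and of NM and NF (0.772, 0.502 and 0.314), so that the replicate block is given beside these comparisons where it moved a count. Other normalizations and filters, DESeq2 1.42.0, the block and leaving out each sample were tried. Positions, coding sequences and the 250 bases before gene starts were read with Python 3.11.15 from the TAIR10.1 genome and its RefSeq annotation, and all 23396 genes of the table matched. Windows of 100 bases were compared between coding sequences of P450 genes.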

Additional observations from a re-analysis of the deposited data

How the results depend on the processing

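For the 38 calls of the report, 825 repeats under other settings gave 709 with the same call, 116 in the same direction but no longer past the threshold and 0 in the opposite direction; results to which DESeq2 gave no adjusted p-value are not counted. The fitted interaction of CYP715A1, which is no bound because its NM samples had no counts, was −5.60 with all samples and ranged from −6.44 to 0.03 when single samples were left out, with 0.03 without HM replicate 1. Leaving out single samples moved the number of P450 genes called from 0 to between 0 and 1 in HM vs NM, from 11 to between 5 and 13 in NF vs NM, from 22 to between 11 and 25 in HF vs NM and from 5 to between 1 and 12 in HF vs HM. Shares of all tested genes are not given for these fits. The interaction called 0 P450 genes in edgeR under each setting and in DESeq2, with 2 at an unadjusted p under 0.05.

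DESeq2 on all samples called 3 P450 genes in HM vs NM, 14 in NF vs NM (11 higher), 27 in HF vs NM (11 higher), 1 in HF vs NF and 12 in HF vs HM. DESeq2 fitted on the 2 groups alone called 1 in HM vs NM, 1 in HF vs NF and 10 in HF vs HM. The fit in edgeR on 2 groups called 3 genes in HF vs HM and, for NF vs NM, 7. Scaling by library size alone called 8 in HF vs HM. With the replicate block, edgeR called 22 in NF vs NM, 36 in HF vs NM (17 higher and 19 lower), 15 in HF vs HM and 0 in both HM vs NM and HF vs NF. DESeq2 with the replicate block called 3 in HM vs NM, 27 in NF vs NM, 42 in HF vs NM, 4 in HF vs NF (CYP707A1 higher, CYP702A5, CYP706A6 and CYP71A14 lower) and 27 in HF vs HM. The numbers do not pair HF replicate 3 with the others (r of −0.111 to −0.009), and the blocked counts of the HF comparisons are therefore given only here. Among the blocked fits, a share of all tested genes is given only for NF vs NM in edgeR. It was 9.08% higher and 2.45% lower, against 6.43% and 0.638% without the block. Counts without such a share are not read as a result about the P450 genes. The cause of these differences was not tested.

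Low counts limit CYP71B21 and CYP706A7 in particular, and the biological coefficient of variation of 0.362 (0.237 with the block) limits small changes in all comparisons.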
